A study of Homo sapiens with 4 samples.

Results

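The calcium channel auxiliary subunits are the genes for the alpha2delta subunits (CACNA2D1, CACNA2D2, CACNA2D3 and CACNA2D4) and the beta subunits (CACNB1, CACNB2, CACNB3 and CACNB4) of voltage-gated calcium channels. They were chosen by gene name, and all 8 members were found among the 2864 genes with values in the deposited table. RNA was sequenced from 4 cultures of A375, a human melanoma cell line that carries mutant BRAF. A375P was the parental line without treatment, and A375R was the vemurafenib-resistant strain, built by stepwise dose escalation and labelled as under vemurafenib continuously. A375+DMSO was A375 with 1 per mille DMSO for 48 h, and A375+VEM was A375 with 2 μM vemurafenib, an inhibitor of mutant BRAF, for 48 h. All 4 cultures carry the label wild type for genotype, the same batch label and the same serum-containing medium. Whether A375R is 1 clone and whether the A375+VEM medium also held DMSO are not stated in the sources used here.

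Each condition had 1 library, so each comparison below is between libraries, without replicates and without a test. In RNA of whole cultures, fewer cells that express a gene and less RNA per cell cannot be told apart. The authors deposited a read count and a TPM for each gene, which is the count per base of gene length scaled to the same total in each library. The table covers the genes from the start of the alphabet, and its counts summed to between 1891215 and 2054277 per library, which is not the depth of the libraries. Ratios between libraries are ratios of TPM, with exact Clopper-Pearson intervals at 95% on the reads. Levels of single genes have exact Poisson intervals at 95%. All these intervals cover counting error only. A gene was called higher or lower when (TPM + 0.1) differed by over 1.5-fold, a log2 ratio over 0.585 in size. Only genes that reached a TPM of 1 in either library were compared. The log2 ratios in the text include the added 0.1, so they are too small for low genes.

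Voltage-gated calcium channels open when the membrane depolarizes and let calcium into the cell. The pore is formed by an alpha1 subunit. A beta subunit binds the pore from the cytosol at the linker between its first and second repeats, brings channels to the surface and shifts their gating. An alpha2delta subunit sits on the outer face of the membrane, made as 1 precursor that is cut into alpha2 and delta, and raises the number of channels at the surface. Both are best known from nerve, muscle and heart, and the gabapentinoid drugs bind alpha2delta subunits.

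CACNB3 was the auxiliary subunit gene with the highest TPM in 3 of the 4 libraries, but in A375P it ranked below CACNB1 and CACNA2D1. Its product is a beta subunit of neurons, smooth muscle and many other tissues. A375P gave 131 reads, A375R 853, A375+DMSO 829 and A375+VEM 1232. These reads gave a TPM of 4.73 in A375P (95% interval 3.95 to 5.61), 34.1 in A375R (31.8 to 36.4), 32.0 in A375+DMSO (29.9 to 34.3) and 48.0 in A375+VEM (45.3 to 50.7). A375P stood apart as the low library, A375R and A375+DMSO did not differ beyond counting error, and A375+VEM was the highest. Of the protein-coding genes in the table, 47.0% had a lower TPM than CACNB3 in A375P and 83.6% in A375+VEM. In the authors' table, on the hg19 build of their processing notes, the gene spans bases 49208215 to 49222726 of chromosome 12 (plus strand).

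CACNB1 was the leading beta subunit gene of A375P. It encodes the beta subunit of skeletal muscle, where it is needed to couple excitation to contraction, and is also made elsewhere. A375P gave 376 reads, A375R 357, A375+DMSO 259 and A375+VEM 144. The TPM was 10.7 (95% interval 9.62 to 11.8) in A375P, 11.2 (10.1 to 12.4) in A375R, 7.88 (6.95 to 8.90) in A375+DMSO and 4.41 (3.72 to 5.19) in A375+VEM. A375P and A375R were close, A375+DMSO was lower and A375+VEM was the lowest. CACNB1 spans bases 37329709 to 37353956 of chromosome 17 (minus strand).

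CACNB2 and CACNB4 were low in all 4 libraries. CACNB2, the main beta subunit of heart muscle, was read 56 times in A375P, 33 times in A375R, 41 times in A375+DMSO and 27 times in A375+VEM. Its TPM went from 0.559 in A375+VEM to 1.07 in A375P, and no neighbouring libraries in that order differed beyond counting error. The lowest and highest libraries did differ, with A375+VEM at a ratio of 0.520 to A375P (95% interval 0.316 to 0.838). CACNB4, a beta subunit of the cerebellum whose loss causes seizures and ataxia in mice, was read 2 times in A375P, 12 times in A375R, 23 times in A375+DMSO and 35 times in A375+VEM. Its TPM was 0.025 in A375P (95% interval 0.0031 to 0.092) and 0.479 in A375+VEM (0.333 to 0.666), so A375P was the lowest library here too. CACNB2 spans bases 18429606 to 18830688 of chromosome 10 (plus strand). CACNB4 spans bases 152689285 to 152955681 of chromosome 2 (minus strand).

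**Figure D1:**
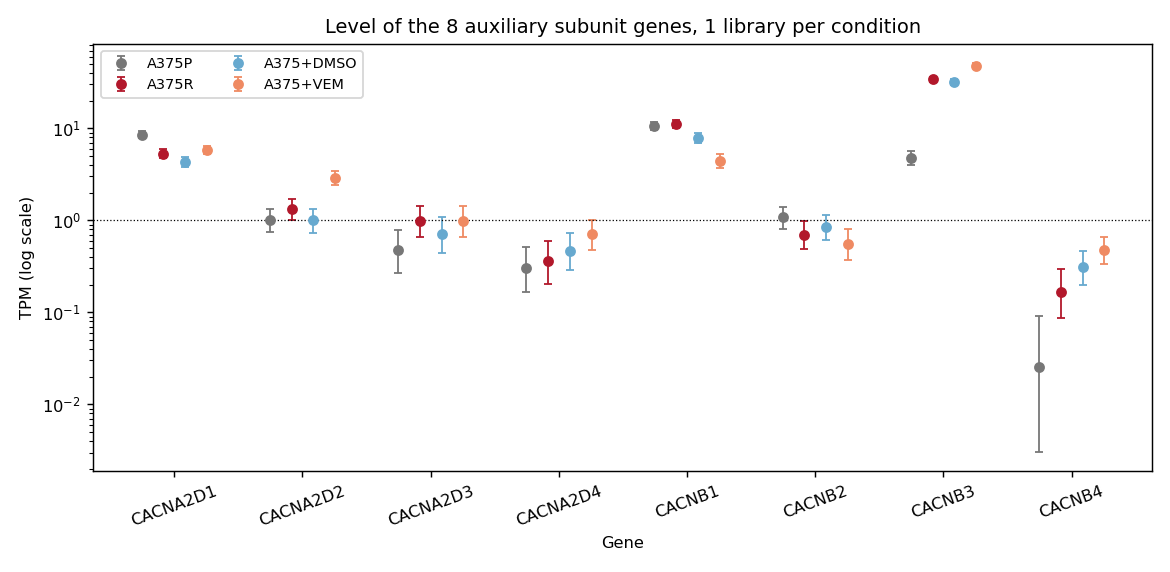
TPM of the 8 auxiliary subunit genes on a log axis, with 1 point per library and exact 95% Poisson intervals on the reads as bars. The dotted line marks a TPM of 1. CACNB3 in A375P sits at 4.73, below its 3 other points at 32.0 to 48.0.

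CACNA2D1 was the leading alpha2delta gene in every library. Its product is the widespread alpha2delta subunit of muscle and brain and a target of gabapentin and pregabalin. A375P gave 576 reads, A375R 324, A375+DMSO 271 and A375+VEM 366. The TPM was 8.55 (95% interval 7.86 to 9.27) in A375P, 5.32 (4.76 to 5.93) in A375R, 4.31 (3.81 to 4.85) in A375+DMSO and 5.86 (5.28 to 6.49) in A375+VEM. A375P was the highest library, the reverse of its place for CACNB3, and A375+DMSO was the lowest. CACNA2D1 spans bases 81575760 to 82073122 of chromosome 7 (minus strand).

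CACNA2D2, the other alpha2delta subunit that binds gabapentin, was read 51 times in A375P, 60 times in A375R, 47 times in A375+DMSO and 135 times in A375+VEM. Its TPM was 1.02 (95% interval 0.756 to 1.33) in A375P, 1.32 (1.01 to 1.70) in A375R, 1.00 (0.737 to 1.33) in A375+DMSO and 2.90 (2.43 to 3.43) in A375+VEM. A375+VEM was the only library that stood apart, and the other 3 did not differ between neighbours beyond counting error. CACNA2D2 spans bases 50400044 to 50541675 of chromosome 3 (minus strand).

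CACNA2D3 and CACNA2D4 stayed under a TPM of 1 in all 4 libraries. CACNA2D3, an alpha2delta subunit of the brain, was read 15 times in A375P, 28 times in A375R, 21 times in A375+DMSO and 29 times in A375+VEM. CACNA2D4, an alpha2delta subunit of photoreceptors, was read 14 times in A375P, 15 times in A375R, 20 times in A375+DMSO and 30 times in A375+VEM. Between neighbours in the order of libraries neither gene differed beyond counting error. CACNA2D3 spans bases 54156693 to 55108584 of chromosome 3 (plus strand), and CACNA2D4 spans bases 1901123 to 2027870 of chromosome 12 (minus strand). CACNA2D3-AS1, a lncRNA on the other strand inside CACNA2D3, had 1 read in A375R and 0 in the other libraries. ADIPOR2, with 2157 to 2920 reads, lies 3278 bases from CACNA2D4 on the other strand, and whether reads were counted by strand is not given in the sources used here.

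The promoters of the 4 members with a TPM of at least 1 in every library are shown so that the genes can be placed beside each other in sequence. They are the first annotated start of each gene in RefSeq on GRCh38.p14, which is not the build of the counts, and the reads per gene do not tell which start was used. Each line runs 5′ to 3′ on the strand of the gene, from 250 to 51 bases before the start, and capitals mark the GC box GGGCGG on either strand. Neighbouring GC boxes in CACNB1 overlap.
CACNB3: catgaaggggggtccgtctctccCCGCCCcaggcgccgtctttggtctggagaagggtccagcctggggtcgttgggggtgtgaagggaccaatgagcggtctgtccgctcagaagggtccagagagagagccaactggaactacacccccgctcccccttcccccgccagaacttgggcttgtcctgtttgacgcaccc
CACNB1: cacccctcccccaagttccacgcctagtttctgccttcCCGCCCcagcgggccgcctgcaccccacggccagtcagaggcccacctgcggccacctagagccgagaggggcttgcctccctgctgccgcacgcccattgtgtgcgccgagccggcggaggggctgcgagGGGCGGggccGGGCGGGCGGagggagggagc
CACNA2D1: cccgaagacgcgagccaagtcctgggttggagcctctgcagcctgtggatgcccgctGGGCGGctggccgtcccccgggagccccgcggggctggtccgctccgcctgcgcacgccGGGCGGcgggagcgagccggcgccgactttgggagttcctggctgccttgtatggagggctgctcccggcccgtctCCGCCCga
CACNA2D2: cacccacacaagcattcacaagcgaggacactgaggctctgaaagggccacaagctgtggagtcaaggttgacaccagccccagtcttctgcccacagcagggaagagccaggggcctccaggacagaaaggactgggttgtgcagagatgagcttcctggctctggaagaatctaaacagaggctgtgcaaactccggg
CACNB3 is chr12:48814230-48814429 on the plus strand. On the minus strand, CACNB1 is chr17:39197720-39197919, CACNA2D1 is chr7:82444007-82444206 and CACNA2D2 is chr3:50504295-50504494.

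These 200 bases held 1 GC box in CACNB3, 4 in CACNB1, 3 in CACNA2D1 and none in CACNA2D2. Their GC content was 64.5% in CACNB3, 75.5% in CACNB1, 75.5% in CACNA2D1 and 57.0% in CACNA2D2. RefSeq windows of 250 bases before to 50 bases after a start were matched for 7 of the members, 17 windows in all, and CACNA2D4 was not among them. A GC box was found in 8 of the 17 windows, and in 44.9% of all 34943 windows. The window of the second start of CACNA2D2 held 3 GC boxes, with a GC content of 77.3%, unlike its first start. That of the third start of CACNB3 held 2. The TEAD motif GGAATG, the binding motif of the partners of YAP and TAZ, was found in 1 of the 17, a later start of CACNB4, and in 14.04% of all windows. The E-box CACGTG was found in none of the 17 and in 7.23% of all. The related M-box core CATGTG was found in 1, at a later start of CACNB2, and in 11.1% of all. The cyclic AMP response element TGACGTCA and the TATA box TATAAA were found in none of the 17, and in 1.84% and 11.6% of all windows. All motifs were searched on both strands, and a match or its lack says only which letters are in the window.

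The make-up of the beta family in A375P differed from that in the other libraries. In A375P, CACNB1 held 64.7% of the summed TPM of the 4 beta genes and CACNB3 28.6%. The CACNB3 share was 73.8% for A375R, 78.0% for A375+DMSO and 89.8% for A375+VEM. Within A375P, the TPM of CACNB1 was 2.26 times that of CACNB3 (95% interval 1.85 to 2.78). In the other libraries the TPM of CACNB3 was 3.04 times that of CACNB1 for A375R (2.68 to 3.45), 4.07 times for A375+DMSO (3.53 to 4.69) and 10.9 times for A375+VEM (9.14 to 13.0). The TPM of the 4 genes summed to 16.5 for A375P, 46.1 for A375R, 41.1 for A375+DMSO and 53.4 for A375+VEM. Without CACNB3 these sums were 11.8, 12.1, 9.03 and 5.45 in the same order, so the other beta genes together were lowest in A375+VEM.

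The summed TPM of the alpha2delta family varied less, with 10.3 for A375P, 7.99 for A375R, 6.49 for A375+DMSO and 10.5 for A375+VEM. CACNA2D1 held 82.6% of it in A375P but 66.6% in A375R, 66.4% in A375+DMSO and 56.0% after vemurafenib. CACNA2D2 held 27.7% in A375+VEM and between 9.81% and 16.5% in the other libraries. CACNA2D1 was 8.42 times CACNA2D2 in A375P (95% interval 6.32 to 11.4) and 2.02 times in A375+VEM (1.65 to 2.48). The sums of A375P and A375+VEM were close, but CACNA2D2, CACNA2D3 and CACNA2D4 each had a higher TPM in A375+VEM and CACNA2D1 a lower one. The TPM of the beta family was 1.59 times that of the alpha2delta family in A375P and 5.10 to 6.33 times in the other libraries.

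**Figure D2:**
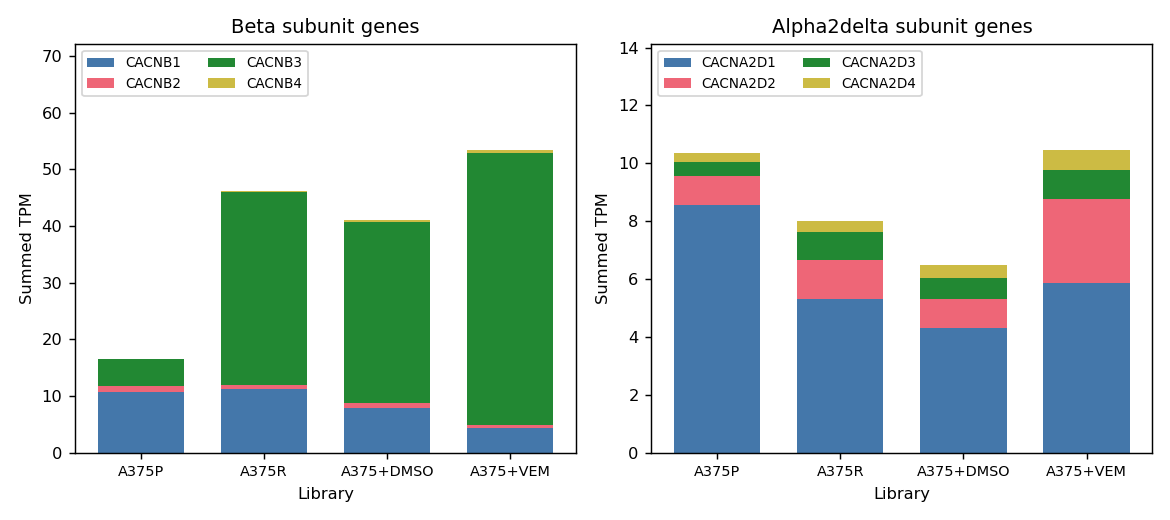
Summed TPM of the beta genes (left) and the alpha2delta genes (right) in each library, stacked by gene, with each axis starting at 0. CACNB1 fills most of the beta bar in A375P and CACNB3 most of it elsewhere, while CACNA2D1 fills at least 56.0% of each alpha2delta bar.

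The resistant strain was compared with the parental line to ask which genes differ in lasting resistance. A375R was labelled as under vemurafenib and A375P was untreated, so resistance and current exposure to the drug cannot be told apart in this pair. Of the 8 members, 5 had a TPM of 1 or more in A375P or A375R. CACNB3 was higher in A375R and CACNA2D1 was lower, where 44.3% of the 1689 genes compared were past 1.5-fold (26.8% higher and 17.5% lower). CACNB3 was 7.21-fold higher (95% interval 5.99 to 8.73), a log2 ratio of 2.82, and 24 of the 1689 genes had a larger one. The ratio of CACNA2D1 was 0.623 (0.542 to 0.715), a log2 ratio of -0.67. CACNB1 was at a ratio of 1.05 (0.907 to 1.22), CACNA2D2 at 1.30 (0.882 to 1.93) and CACNB2 at 0.652 (0.411 to 1.02). CACNB2 had a log2 ratio of -0.55, and with a pseudocount of 0.01 or with ratios scaled to a median of 1 it was counted as lower. The median log2 ratio of the 5 members was 0.07, beside 0.10 over all genes compared. Under the limit of 1 TPM, CACNA2D3 was at a ratio of 2.07 (1.07 to 4.16), CACNB4 at 6.64 (1.48 to 61.1) and CACNA2D4 at 1.19 (0.534 to 2.65).

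The acute pair asks which genes respond to 48 h of the drug. Of the 4 members that reached a TPM of 1 in A375+DMSO or A375+VEM, CACNA2D2 was higher in A375+VEM and CACNB1 lower, where 46.2% of 1784 genes were past 1.5-fold (26.5% higher and 19.7% lower). CACNA2D2 was 2.89-fold higher (95% interval 2.06 to 4.12), a log2 ratio of 1.44, and 149 genes had a larger one. CACNB1 was at a ratio of 0.560 (0.453 to 0.689), a log2 ratio of -0.82. CACNB3 was 1.497-fold higher (1.37 to 1.64), but its log2 ratio of 0.58 was just under the threshold. CACNA2D1 was 1.36-fold higher (1.16 to 1.60). The median log2 ratio of these 4 was 0.51, beside 0.11 over all genes compared. The members under 1 TPM all had intervals that held 1, with ratios of 0.663 for CACNB2, 1.39 for CACNA2D3, 1.51 for CACNA2D4 and 1.53 for CACNB4.

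The 2 cultures without vemurafenib also differed. CACNB3 was 6.78-fold higher in A375+DMSO than in A375P (95% interval 5.63 to 8.22) and CACNA2D1 was at a ratio of 0.504 (0.435 to 0.584), where 45.7% of 1720 genes were past 1.5-fold (26.8% higher and 18.9% lower). They were the members past 1.5-fold among the 5 compared. CACNB1 was at 0.738 (0.628 to 0.867), CACNB2 at 0.785 (0.511 to 1.20) and CACNA2D2 at 0.988 (0.650 to 1.498). CACNB4 went from 2 to 23 reads, a ratio of 12.3 (3.05 to 108). The median log2 ratio of the 5 members compared was -0.32, beside 0.09 over all genes. This comparison shares the A375P library with that of the resistant strain, and the A375+DMSO library with the acute pair.

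With A375+DMSO as the control of A375R, none of the 4 members compared was past 1.5-fold, where 20.5% of 1702 genes were (10.5% higher and 9.99% lower). CACNB3 was at a ratio of 1.06 (95% interval 0.965 to 1.17), an interval that leaves out 1.5-fold. CACNA2D1 was at 1.23 (1.05 to 1.46), so A375R was below A375P but slightly above A375+DMSO. CACNB1 was at 1.42 (1.21 to 1.68) and CACNA2D2 at 1.32 (0.885 to 1.97). The median log2 ratio of the 4 was 0.33, beside 0.02 over all genes compared. The higher CACNB3 of A375R was thus there against 1 of the 2 libraries without vemurafenib.

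With A375P as the control of A375+VEM, 4 of 5 members compared were past 1.5-fold, where 62.1% of 1782 genes were (36.9% higher and 25.3% lower). CACNB3 was 10.1-fold higher (95% interval 8.47 to 12.2) and CACNA2D2 2.86-fold higher (2.06 to 4.02). CACNB1 was at a ratio of 0.413 (0.339 to 0.502) and CACNB2 at 0.520 (0.316 to 0.838). CACNA2D1 was at 0.686 (0.600 to 0.783), a log2 ratio of -0.54, against 0.43 with A375+DMSO as the control. With ratios scaled to a median of 1 it too was counted as lower, which made 5 of 5. CACNA2D2 and CACNB1 were past 1.5-fold on the same side against both libraries without the drug, and CACNA2D1 was on opposite sides of 1.

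**Figure D3:**
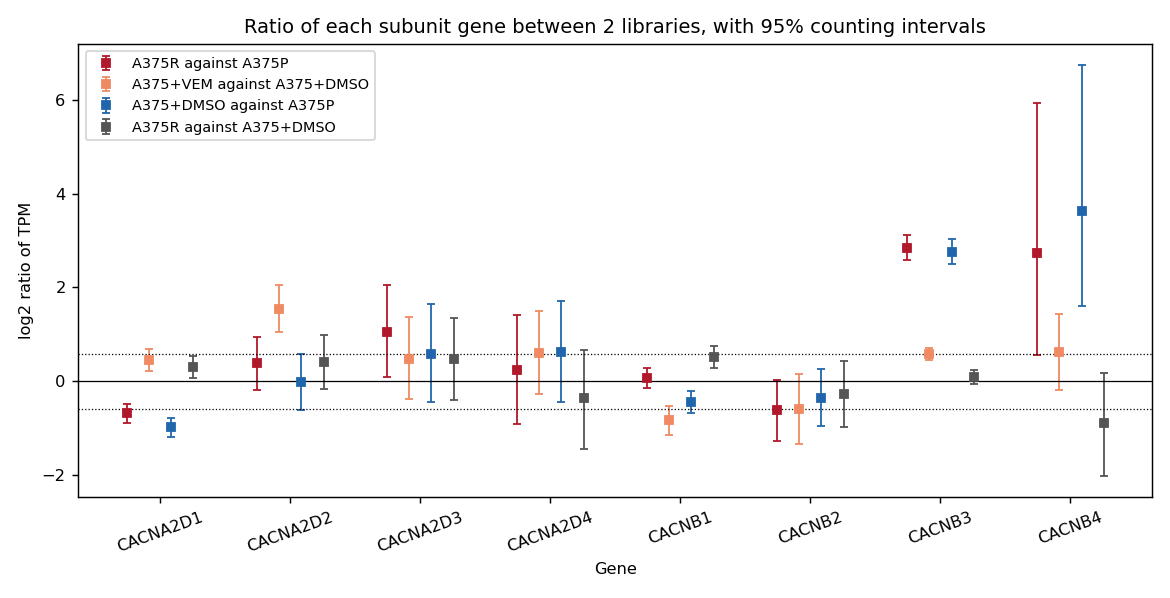
Log2 ratio of TPM, without a pseudocount, of each subunit gene in 4 comparisons of 2 libraries, with exact 95% counting intervals. Dotted lines mark 1.5-fold. CACNB3 lies at 7.21-fold and 6.78-fold against A375P and at 1.06-fold in A375R against A375+DMSO.

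**Figure D4:**
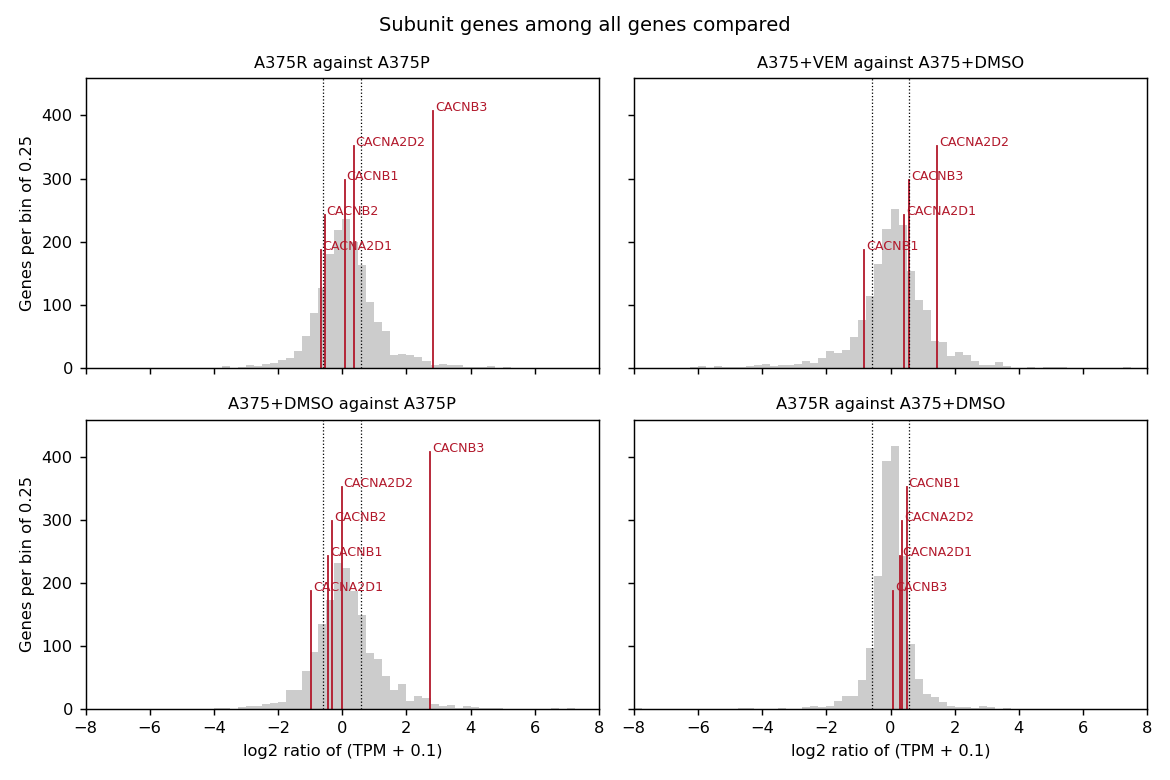
Distribution of the log2 ratio of (TPM + 0.1) over all genes compared (grey bars of 0.25) in 4 comparisons, with red lines for the members compared, whose heights are for labelling only. Dotted lines mark 1.5-fold. CACNB3 lies in the right tail of both comparisons with A375P, where 24 and 35 genes have a larger ratio.

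The auxiliary subunits serve pore subunits, though not necessarily all 10 of those listed here. The TPM of the 10 pore genes summed to 2.42 for A375P, 4.02 for A375R, 3.64 for A375+DMSO and 11.8 for A375+VEM. CACNA1A, the pore of P/Q-type channels, and CACNA1D, the pore of a low-threshold L-type channel, were the members with a TPM of 1 in any library. CACNA1D was read 44 times in A375P, 60 times in A375R, 101 times in A375+DMSO and 579 times in A375+VEM. The TPM of CACNA1D was 0.656, 0.990, 1.61 and 9.32 in the same order, so this gene made up most of the pore sum in A375+VEM. Its TPM in A375+VEM was 5.77 times that of A375+DMSO (95% interval 4.67 to 7.20). It was 1 of 2 pore genes compared in that pair. CACNA1A was the pore gene compared between A375R and A375P, with 101 and 67 reads and a ratio of 1.67 (1.21 to 2.31). When ratios were scaled to a median of 1 it was under 1.5-fold.

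The gamma subunits are another family of auxiliary subunits, several of which also act on AMPA receptors. Of the 8 gamma genes, CACNG6, CACNG7 and CACNG8, neighbours on chromosome 19, reached a TPM of 1. For CACNG8, A375P gave 1011 reads, A375R 1475, A375+DMSO 1064 and A375+VEM 1389. CACNG6 had 62, 135, 184 and 199 reads in the same order, and CACNG7 had 21, 29, 36 and 151. Of these 3, CACNG6 and CACNG8 were higher in A375R than in A375P, by 2.41-fold (95% interval 1.77 to 3.31) and 1.62-fold (1.49 to 1.75). In the acute pair, CACNG7 was 4.22-fold higher with the drug (2.92 to 6.26). None of the 3 was lower in either pair, where 17.5% and 19.7% of all genes were lower and 26.8% and 26.5% higher. A375P had the lowest TPM of CACNB3, CACNB4, CACNA2D3, CACNA2D4, CACNA1A, CACNA1D and all 3 of these gamma genes. It had the highest TPM of CACNA2D1 and CACNB2, while CACNB1 was lowest in A375+VEM and CACNA2D2 in A375+DMSO. The share of all genes that were lowest in A375P was not counted.

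**Figure D5:**
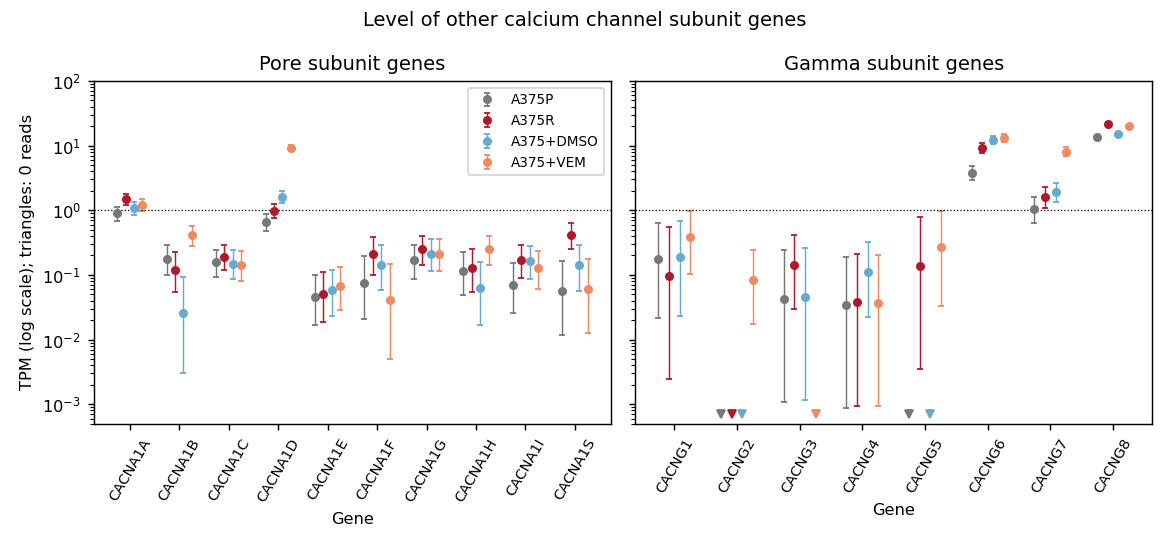
TPM of the 10 pore subunit genes (left) and the 8 gamma subunit genes (right) on a log axis, with 1 point per library and exact 95% Poisson intervals. Triangles mark 0 reads and the dotted line a TPM of 1. CACNA1D in A375+VEM, at 579 reads, is the highest point of the pore genes.

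For the 5 members that reached a TPM of 1 in any library, the most alike genes were sought by the distance between profiles of log2(TPM + 0.1) over the 4 libraries, each centred on its own mean. The genes searched had a mean TPM of 1 or more, which left out CACNA2D3, CACNA2D4, CACNB2 and CACNB4 as matches. This measure of 4 points is a description. The closest to CACNB3 were ATG16L2 at a distance of 0.19, C1orf21 at 0.23 and BTN3A3 at 0.24, beside a median of 2.64 over 1699 genes. The closest to CACNB1 were C8orf58 at 0.10, AP1AR at 0.10 and B4GALT6 at 0.13. CACNA2D1 was closest to C22orf23 at 0.10, ASXL2 at 0.11 and ATP6V1C1 at 0.11. CACNA2D2 was closest to ARHGEF19 at 0.17, ATP6V1B1 at 0.20 and ARSD at 0.24. CACNB2 was closest to C6orf48 at 0.08, ATP5B at 0.11 and AMZ2 at 0.11.

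Of 13 marker genes of melanocytes and melanoma, 5 were in the table, and MLANA, PMEL, TYR, SOX10 and MITF were not analysed here. The TPM of these 5 summed to 20.7 for A375P, 52.2 for A375R, 26.7 for A375+DMSO and 46.3 for A375+VEM, and ABCB5 had 0 reads in A375R. A TPM of 1 was reached by 3, 2, 3 and 4 of them in the same order, so 2 genes made up most of the A375R sum. The 4 muscle genes listed summed to 6.25, 3.26, 3.94 and 8.05 in the same order, with ACTC1 at 0 reads in A375R and A375+DMSO. The 4 neuronal genes summed to 3.62, 2.30, 2.99 and 6.81, with none at 0 reads. Muscle and neuronal sums were both highest in A375+VEM, where CACNA2D2 and CACNA1D were highest. ATP2A1, which is also in the list of pumps, made up 6.002 TPM of the muscle sum there. The other 3 muscle genes summed to 4.36 for A375P, 2.07 for A375R, 2.24 for A375+DMSO and 2.05 for A375+VEM, so without ATP2A1 A375+VEM was the lowest. Without BSN, which is also in the list of channel partners, the other 3 neuronal genes summed to 1.56, 1.52, 2.01 and 3.74, again highest in A375+VEM. The part of these genes in the CACNA2D2 and CACNA1D results was not tested. The 6 immune genes summed to between 0.346 and 1.12, and C1QA had 0 reads in every library.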

How the data were processed

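The 4 libraries were grouped by their sample labels. The authors deposited 1 table with whole-number read counts, not normalized, and with TPM. In the deposited TPM, count per base of gene length was scaled by 1 constant per library. The submitters' processing notes list the build hg19 and the names HISAT2, HISAT, TopHat2 and Bowtie2 with no role. The counting program and its use of strand are not given in the sources used here. The table holds the genes from the start of the alphabet, and 1 incomplete row was left out. The members and gene lists were chosen with earlier results of these data known.

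Ratios, thresholds and intervals were computed with Python 3.11.15, numpy 2.4.6, pandas 2.3.3 and scipy 1.17.1, and figures with matplotlib 3.10.9. Ratio intervals came from the exact Clopper-Pearson interval of one library's share of both libraries' reads, scaled by the constants behind the TPM. With 1 library per condition no test was made. The ratio step was run on simulated data, with changes larger than the threshold, in genes above the TPM limit, and counting noise only. That run does not cover calls near 1.5-fold, low genes or differences between cultures. Named genes were the 8 members, the genes of the lists past 1.5-fold in A375R against A375P or A375+VEM against A375+DMSO (at most 4 per list), and the 3 nearest profiles of each member. The result of 1 gene of these lists is not reported here. Genes lying beside members were named after their values were seen. The alternatives were other pseudocounts, other limits on low values, ratios scaled to a median of 1, a 2-fold threshold and A375P as the control of A375+VEM. Promoters came from RefSeq on GRCh38.p14.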

Additional observations from a re-analysis of the deposited data

Results flagged for a closer look

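CACNA2D1 differed in opposite directions in the 2 pairs that the study set up, each beyond counting error. The ratio was 0.623 in A375R against A375P (95% interval 0.542 to 0.715) and 1.36 in A375+VEM against A375+DMSO (1.16 to 1.60). Whether the pairs differ was not tested, since each has 1 library per condition. Against A375+DMSO, A375R was at a ratio of 1.23 (1.05 to 1.46). Against A375P, A375+VEM was at 0.686 (0.600 to 0.783). With the same control for both, A375P or A375+DMSO, the 2 ratios were therefore on the same side of 1.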

How the results depend on the processing

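The number of members past 1.5-fold was 2 of 5 compared for A375R against A375P, 2 of 4 for A375+VEM against A375+DMSO, 2 of 5 for A375+DMSO against A375P and 0 of 4 for A375R against A375+DMSO. With low values kept, so that all 8 members were compared, these counts were 4, 2, 3 and 1, beside 43.2%, 44.8%, 44.2% and 28.6% of all 2864 genes. The members added were CACNA2D3 and CACNB4 in A375R against A375P, and CACNB4 in the last 2 comparisons, with 2 to 28 reads. At a 2-fold threshold, stricter by construction, 1 member was left in each of the first 3 comparisons, namely CACNB3, CACNA2D2 and CACNB3, beside 22.2%, 26.4% and 26.0% of all genes. At a TPM of at least 5, 1 member was left in A375+VEM against A375+DMSO, CACNB1, since CACNA2D2 was not compared, beside 42.4% of all genes. With A375P as the control of A375+VEM, 4 of 5 members were past 1.5-fold, beside 62.1% of all genes. A pseudocount of 0.01 or scaling to a median ratio of 1 gave 3 in A375R against A375P, with CACNB2 added, beside 45.0% and 43.2% of all genes. Pseudocounts, limits on low values and fold thresholds cannot change the sign of a ratio. The shifts from scaling were too small to reverse a call. With A375P as the control of A375+VEM a sign could change, and the called members CACNA2D2 and CACNB1 kept theirs. CACNA2D1, which was not called in that pair, went from a log2 ratio of 0.43 to -0.54. With a pseudocount of 1, 3 of 32 member values left their counting interval, and with A375P as the control 4 of 8 did. No paired analysis was possible because each condition had 1 library, and no library could be left out for the same reason. CACNA2D3, CACNA2D4, CACNB2 and CACNB4 had at most 56 reads in a library, and this depth limits what can be said of them.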

Other observations

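Of 18 regulators and partners listed, 14 are in the table, and 9 were compared in each pair. Of these 9, 4 were higher and 2 lower in A375R than in A375P, where 26.8% of all genes were higher and 17.5% lower. With ratios scaled to a median of 1, CACFD1 was under 1.5-fold and 3 were higher. BIN1, which shapes the membrane tubules that hold L-type channels in heart muscle, was read 28 times in A375P, 133 times in A375R, 130 times in A375+DMSO and 116 times in A375+VEM. A375R was 5.26-fold above A375P in TPM (95% interval 3.48 to 8.21), and A375P was the low library, as for CACNB3. ADRB1, a receptor through which adrenaline acts on heart channels, had 7 reads in A375+VEM and 40 in A375+DMSO, a ratio of 0.176 (0.0666 to 0.398). Against A375P, with 9 reads, the ratio was 0.839 (0.266 to 2.53), so the lower level was seen against 1 of the 2 libraries without the drug. In A375R, with 25 reads, ADRB1 was at a ratio of 3.08 to A375P (1.39 to 7.49), so the 2 pairs went opposite ways. Against A375+DMSO, A375R was at 0.646 (0.375 to 1.09). BSN, a scaffold of the presynaptic active zone, was at opposite sides in the 2 pairs, with a ratio of 0.377 (0.296 to 0.477) in A375R against A375P and 3.13 (2.55 to 3.86) in A375+VEM against A375+DMSO. Whether the pairs differ was not tested. CACFD1, a channel-like protein of synaptic vesicles, was 2.75-fold higher in A375+VEM (2.30 to 3.30).

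Of the 9 calcium pump genes, 6 were compared between A375R and A375P. Of these 6, 1 was higher and 1 lower, where 26.8% of all genes were higher and 17.5% lower. ATP2B4, a pump that moves calcium out of the cell, was read 1340 times in A375P, 6850 times in A375R, 4055 times in A375+DMSO and 9396 times in A375+VEM. A375R exceeded A375P 5.66-fold (95% interval 5.34 to 6.005), and A375+VEM exceeded A375+DMSO 2.33-fold (2.25 to 2.42). Against A375+DMSO it was 1.74-fold higher in A375R (1.68 to 1.81), so its direction in A375R held against both libraries without vemurafenib. Of 7 pumps compared in the acute pair, 3 were higher and 2 lower, where 26.5% of all genes were higher and 19.7% lower. ATP2A1, the calcium pump of fast skeletal muscle, was 3.51-fold higher in A375+VEM (2.54 to 4.93). In A375R against A375P, ATP2A1 was the lower pump, at a ratio of 0.630 (0.398 to 0.982), so the 2 pairs went opposite ways. Whether the pairs differ was not tested. ATP2B1, another pump of the cell surface, was at a ratio of 0.604 in the acute pair (0.547 to 0.667). ATP2A2, a pump of the endoplasmic reticulum, was 1.55-fold higher (1.51 to 1.60), and it was under 1.5-fold when ratios were scaled to a median of 1. Against A375P, the ratio of ATP2A2 in A375+VEM was 1.09 (1.07 to 1.12).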
